A study of Mus musculus with 36 samples.

Results

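The 10 genes described here encode the 5 subunits of the transcription factor NF-kB (Nfkb1, Nfkb2, Rel, Rela and Relb) and 5 proteins of the IkB family that bind them (Nfkbia, Nfkbib, Nfkbie, Nfkbiz and Bcl3). They were chosen by name, and all 10 were found among the 53299 gene symbols of the deposited table. Of those symbols 12463 had enough counts to be tested, and 10 of the 10 were among them. The libraries came from mouse bone marrow cells grown with FLT3 ligand, the growth factor of dendritic cell precursors, into the conventional dendritic cells cDC2 and cDC1. Each kind was given LPS with PGPC (LPS_PGPC in the labels), LPS, PGPC or no stimulus (Nothing in the labels). LPS is a bacterial cell wall product sensed by the receptor TLR4, PGPC is an oxidized phospholipid, and the pair of them is used to make what the series calls hyperactive dendritic cells. The sources used here do not state the mouse strain and age, the doses, the times or any cell sort. The series calls the replicates biological, but no label says which came from separate mice or cultures, so p-values measure the spread between these libraries.

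NF-kB subunits pair up, and in resting cells the pairs are held in the cytoplasm by IkB proteins. When TLR4 binds LPS, a kinase complex called IKK marks the classical IkB proteins for destruction, and the freed pairs enter the nucleus and switch on inflammatory genes. The genes for several IkB proteins are themselves switched on by NF-kB, which closes a negative feedback loop, and some subunit genes are targets in the same way. A slower route processes the Nfkb2 product and lets pairs of it with Relb into the nucleus, and in dendritic cells Relb is known for its part in maturation.

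The 23 libraries used held 243870 to 16601064 counts in 9687 to 15608 genes, 3 per group but for 2 of cDC2 with PGPC. The 12 alum libraries of the series, which held counts in 467 to 2610 genes, and 1 library of cDC2 with PGPC, which held 3805 counts, were left out of the values and tests. Levels are CPM, counts scaled to a common library total, with totals corrected by TMM for differences in composition. A gene was called changed at an adjusted p under 0.05 in edgeR's quasi-likelihood test. A value after ± is a standard error for a log2 fold change and a standard deviation for a level or a share, with n = 3 libraries per group but for 2 of cDC2 with PGPC. The markers fitted the labels in part. Clec9a, a cDC1 receptor, averaged 0.619 CPM in cDC2 and 37.0 CPM in cDC1 with Nothing, but Xcr1, the other cDC1 receptor, had group means of 0 to 13.4 CPM throughout. Sirpa, the cDC2 surface marker, averaged 1098 CPM in cDC2 and 358 CPM in cDC1 with Nothing. Of 9 cDC2 markers tested there, 3 were called higher in cDC2 and 1 lower. Irf4, also a cDC2 marker, averaged less in cDC2 (2.61 CPM) than in cDC1 (24.9 CPM) with Nothing. So did Clec10a (2.29 and 5.93 CPM), Cd209a (0.175 and 2.08 CPM) and Mgl2 (0.265 and 1.48 CPM). Cd209a, Mgl2 and Clec10a, markers of cDC2 in other settings, were at 0 in both cDC2 libraries with PGPC. A locus of ribosomal RNA took a share of counts that differed between groups, and that share is given with the comparisons.

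The promoters are shown for the letters that match the NF-kB consensus upstream of the start. RefSeq sequences on GRCm38.p6 covered 9 promoters of 7 members (Nfkb1, Relb and Nfkbiz were not among them), each read over the 250 bases before the start. In the sequences below, given 5′ to 3′ on the gene's strand, capitals mark every match on either strand to the strict degenerate kappa-B consensus. Overlapping matches run together, as in the Nfkb2 and Rel promoters, where matches on opposite strands share bases. Nfkb2 is shown because it held 3 matches in its upstream promoter (chr19:46304487-46304736, plus strand), and Rel for its paired match (chr11:23770970-23771219, minus strand). Nfkbia (chr12:55492648-55492897, minus strand) and Nfkbie (chr17:45555450-45555699, plus strand) are the classical IkB genes with a match. Nfkbib (chr7:28766645-28766894, minus strand) is shown as the classical IkB gene without any in its window. The windows follow RefSeq starts. That of Nfkbib and the upstream one of Nfkb2 lie inside the GENCODE gene spans given below (28758251 to 28767512 and 46304320 to 46312385). Bases before those outer GENCODE starts were not read.
Nfkb2: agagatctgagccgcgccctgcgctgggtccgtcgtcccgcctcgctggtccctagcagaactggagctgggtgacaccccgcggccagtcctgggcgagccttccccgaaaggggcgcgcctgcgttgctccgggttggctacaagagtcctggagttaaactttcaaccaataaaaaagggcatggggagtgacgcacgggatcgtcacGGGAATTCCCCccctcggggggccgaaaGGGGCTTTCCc
Rel: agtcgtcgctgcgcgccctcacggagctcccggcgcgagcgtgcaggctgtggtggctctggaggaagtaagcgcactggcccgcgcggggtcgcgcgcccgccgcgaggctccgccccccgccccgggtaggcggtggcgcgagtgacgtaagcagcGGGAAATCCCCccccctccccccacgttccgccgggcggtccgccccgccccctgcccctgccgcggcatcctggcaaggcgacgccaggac
Nfkbia: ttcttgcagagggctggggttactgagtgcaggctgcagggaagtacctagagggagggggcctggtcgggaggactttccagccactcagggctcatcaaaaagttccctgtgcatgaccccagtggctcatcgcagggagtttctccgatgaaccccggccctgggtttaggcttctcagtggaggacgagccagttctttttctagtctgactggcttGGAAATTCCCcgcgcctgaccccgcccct
Nfkbie: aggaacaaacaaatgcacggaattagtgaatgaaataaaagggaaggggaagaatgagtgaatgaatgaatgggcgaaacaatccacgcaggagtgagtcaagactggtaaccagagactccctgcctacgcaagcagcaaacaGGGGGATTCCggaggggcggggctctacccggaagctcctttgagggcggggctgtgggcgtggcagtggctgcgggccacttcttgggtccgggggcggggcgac
Nfkbib: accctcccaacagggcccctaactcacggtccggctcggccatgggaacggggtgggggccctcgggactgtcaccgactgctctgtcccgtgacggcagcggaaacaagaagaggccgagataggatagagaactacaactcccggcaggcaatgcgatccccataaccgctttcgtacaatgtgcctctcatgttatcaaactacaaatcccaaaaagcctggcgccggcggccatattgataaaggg
The strict consensus was found in 4 of the 7 members with a promoter, against 3.9% of all 32851 promoters, or 4.46% of 27025 genes. The match of Nfkbia began 29 bases before the start, that of Nfkbie 106 bases before it, and the Rel matches 92 and 91 bases before it. The downstream starts of Nfkb2 held a match each, so all 3 of its promoters had 1 or more. A looser form, GGGNNNNNCC on either strand, which includes every strict match, was found in 6 of the 7 members and in 45.8% of all promoters. Bcl3 and Rela had the looser form without the strict one, and Nfkbib had neither. These matches describe the letters of a window and are not measured binding sites.

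LPS alone shows how the NF-kB genes respond when TLR4 is engaged. In cDC1, 3 of the 5 subunit genes and 5 of the 5 IkB genes rose with LPS, so 8 of 10 were called higher and 0 lower, where 8.58% of all genes tested were called higher and 9.36% lower. In cDC2, 4 of the 5 subunits and 5 of the 5 IkB genes rose, or 9 of 10, and 0 fell, where 5.82% of all genes were called higher and 2.7% lower. The median log2 fold change of the 10 genes was 2.05 in cDC1, where that of all genes was -0.12, and 2.73 in cDC2, where that of all genes was 0.03. In these bulk samples, a change in the number of cells of a type and a change in RNA per cell cannot be told apart.

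**Figure D1:**
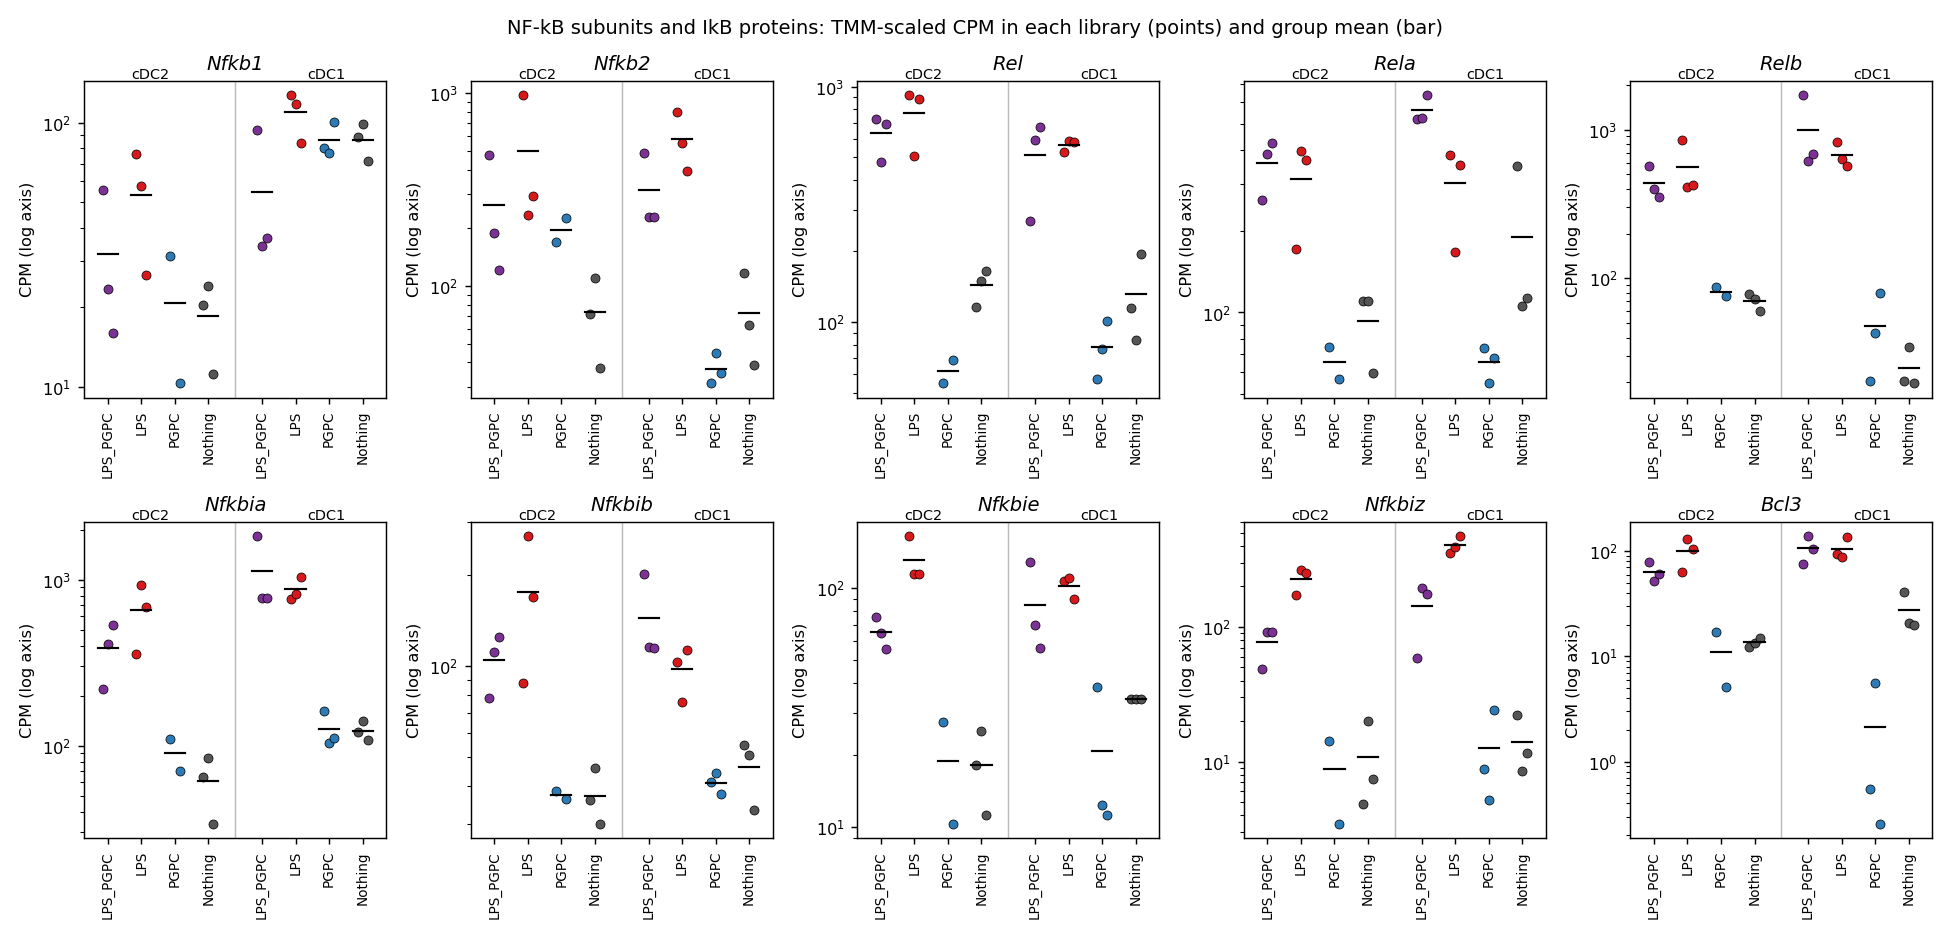
TMM-scaled CPM of the 10 genes on log axes, with cDC2 left and cDC1 right in each panel. Points are libraries (3 per group, 2 of cDC2 with PGPC) and bars are group means. The LPS and LPS_PGPC libraries lie above the PGPC and Nothing libraries in most panels, while Nfkb1 shows little separation in cDC1 (71.6 to 127 CPM in the LPS, PGPC and Nothing libraries).

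Relb (chromosome 7, 19606217 to 19629438, minus strand, GRCm38) encodes the subunit that pairs with p52, the processed form of the Nfkb2 product. In cDC1 it stood at 826, 632 and 573 CPM with LPS, against 20.5, 34.5 and 19.7 CPM with Nothing. It was low in each unstimulated cDC1 library and the groups were far apart, and the log2 fold change was 4.75 ± 0.52 (adjusted p = 1.67e-06). In cDC2 Relb stood at 847, 411 and 422 CPM with LPS, against 79.0, 72.1 and 59.9 CPM with Nothing. The groups did not overlap there either, and the log2 fold change was 2.98 ± 0.49 (adjusted p = 0.000199).

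Nfkb2 (chromosome 19, 46304320 to 46312385, plus strand) encodes p100, which both traps other subunits and is the source of p52. The end of the gene overlaps Psd. It stood at 798, 552 and 395 CPM with LPS in cDC1, against 116, 62.6 and 38.7 CPM with Nothing. Each LPS library was above each Nothing library, and the log2 fold change was 3.02 ± 0.59 (adjusted p = 0.000786). With LPS in cDC2 it stood at 974, 232 and 291 CPM, against 71.3, 110 and 37.4 CPM with Nothing. The groups did not overlap (2.72 ± 0.59, adjusted p = 0.00289), but LPS replicate 4 was over 3 times the others. Without that library the log2 fold change was 1.78 (adjusted p = 0.0394).

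Rel (chromosome 11, 23736847 to 23770970, minus strand) encodes c-Rel, a subunit prominent in lymphocytes and dendritic cells. Its levels were close together in cDC1 with LPS, at 526, 586 and 584 CPM, against 115, 83.6 and 194 CPM with Nothing. The groups were well apart, and Rel rose by 2.11 ± 0.40 on the log2 scale (adjusted p = 0.000525). In cDC2 it stood at 917, 506 and 887 CPM with LPS, against 116, 149 and 165 CPM with Nothing, again without overlap (2.44 ± 0.40, adjusted p = 0.000222).

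Rela (chromosome 19, 5637483 to 5648130, plus strand) encodes p65, the main activating subunit of the classical route. In cDC1 it stood at 383, 167 and 351 CPM with LPS, against 350, 106 and 113 CPM with Nothing. The groups overlapped, because Nothing replicate 1 was at the level of the LPS libraries, and the log2 fold change of 0.68 ± 0.44 was not called (adjusted p = 0.297). Without that library it was 1.46 (adjusted p = 0.0249). The ribosomal locus took 71.94% of counts in that library, and 40.7 and 46.97% in Nothing replicates 2 and 3. In cDC2 Rela rose, at 172, 395 and 368 CPM with LPS, against 110, 110 and 59.9 CPM with Nothing, a difference of 1.70 ± 0.45 on the log2 scale (adjusted p = 0.0152). The groups did not overlap, but the adjusted p was 0.0592 to 0.0884 when LPS replicate 5 or 6 or Nothing replicate 4 or 6 was left out.

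Nfkb1 (chromosome 3, 135584655 to 135691547, minus strand) encodes p105, the source of the p50 subunit. It was the subunit gene not called with LPS in either kind of cell. In cDC1 it stood at 127, 118 and 84.2 CPM with LPS, against 88.1, 98.6 and 71.6 CPM with Nothing, and the groups overlapped (0.35 ± 0.48, adjusted p = 0.659, 95% interval -0.63 to 1.34). In cDC2 it stood at 76.3, 57.6 and 26.4 CPM with LPS, against 20.4, 24.0 and 11.2 CPM with Nothing. Those groups did not overlap, and the log2 fold change was 1.43 ± 0.52 (adjusted p = 0.095). With the replicate number as a block in the edgeR fit it was 1.47 and called (adjusted p = 0.0419), though the numbers were not taken as pairs there. By their estimates the subunits ranked Relb, Nfkb2, Rel, Rela and Nfkb1 in both kinds of cell. The intervals of neighbours overlapped in both kinds of cell. In cDC1 Relb had 3.668 to 5.83 and Nfkb2 1.805 to 4.236, and in cDC2 Relb had 1.97 to 3.98 and Nfkb2 1.51 to 3.93.

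**Figure D2:**
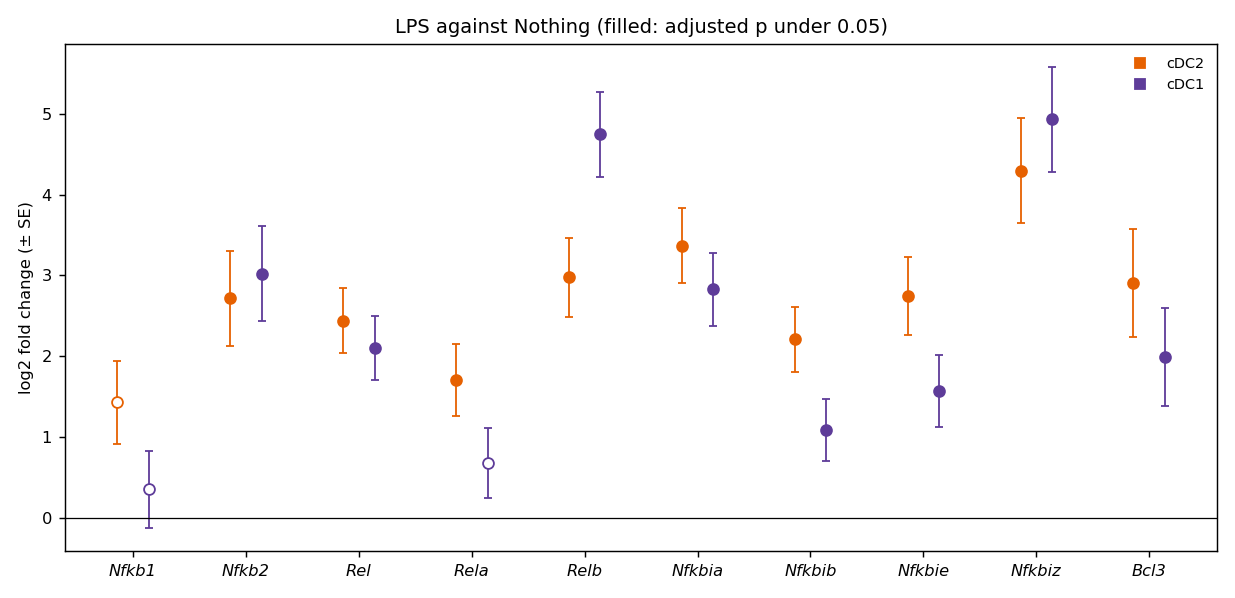
Log2 fold change of each gene for LPS against Nothing (y axis, with standard errors as bars), cDC2 in orange left of cDC1 in purple. Filled points had an adjusted p under 0.05 in edgeR. The IkB genes at right are filled in both kinds of cell, and Nfkb1 is open in both.

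Among the classical IkB genes, Nfkbia (chromosome 12, 55489410 to 55492647, minus strand) encodes IkB-alpha, the fast feedback inhibitor. It stood at 759, 815 and 1040 CPM with LPS in cDC1, against 120, 141 and 108 CPM with Nothing, and at 358, 928 and 682 CPM with LPS in cDC2, against 65.1, 84.2 and 33.7 CPM with Nothing. The groups were separate in both, with log2 fold changes of 2.83 ± 0.45 in cDC1 (adjusted p = 9.26e-05) and 3.37 ± 0.47 in cDC2 (adjusted p = 3.63e-05). Nfkbie (chromosome 17, 45555703 to 45563169, plus strand) encodes IkB-epsilon, a slower feedback inhibitor. It stood at 107, 110 and 90.4 CPM with LPS in cDC1, against 34.2, 34.5 and 34.4 CPM with Nothing, which were nearly the same in all 3 Nothing libraries. The cDC2 libraries had 165, 115 and 115 CPM with LPS, against 18.2, 25.3 and 11.2 CPM with Nothing. The groups did not overlap in either, and the log2 fold changes were 1.57 ± 0.45 in cDC1 (adjusted p = 0.0154) and 2.75 ± 0.48 in cDC2 (adjusted p = 0.000386). The cDC1 call was lost without LPS replicate 2 or Nothing replicate 2 (adjusted p = 0.0557 and 0.0517).

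Nfkbib (chromosome 7, 28758251 to 28767512, minus strand) encodes IkB-beta. It stood at 103, 76.2 and 113 CPM with LPS in cDC1, against 54.7, 50.7 and 33.3 CPM with Nothing, and at 88.1, 270 and 170 CPM with LPS in cDC2, against 35.9, 45.7 and 29.9 CPM with Nothing. The groups did not overlap in either kind of cell. The cDC1 rise was small at 1.09 ± 0.38 (adjusted p = 0.0489), and the call was lost without any 1 of the 6 libraries (adjusted p = 0.0615 to 0.188), with median-ratio scaling, without the ribosomal locus and without a filter on low counts. The cDC2 rise was 2.21 ± 0.40 (adjusted p = 0.000598). The gene overlaps Sirt2 and Ccer2, and since Smart-Seq2 reads carry no strand, reads of overlapping genes cannot be told apart.

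The atypical IkB proteins work in the nucleus, where they change which genes bound NF-kB turns on. Nfkbiz (chromosome 16, 55811375 to 55838899, minus strand) encodes IkB-zeta, which is needed for a late set of genes that includes Il6. It stood at 357, 396 and 473 CPM with LPS in cDC1, against 22.2, 8.48 and 11.5 CPM with Nothing. In cDC2 it stood at 172, 263 and 251 CPM with LPS, against 4.82, 19.9 and 7.48 CPM with Nothing. It was low in every unstimulated library and the groups were far apart, with log2 fold changes of 4.93 ± 0.65 in cDC1 (adjusted p = 1.03e-05) and 4.30 ± 0.65 in cDC2 (adjusted p = 8.55e-05, and a change of 5.41 without Nothing replicate 5).

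Bcl3 (chromosome 7, 19808462 to 19822770, minus strand) encodes a nuclear partner of p50 and p52, and it overlaps the antisense genes Gm16175 and Gm16174. It stood at 94.4, 87.4 and 135 CPM with LPS in cDC1, against 41.1, 20.9 and 20 CPM with Nothing. The groups were separate and Bcl3 rose by 1.99 ± 0.61 on the log2 scale (adjusted p = 0.0249), a call lost without LPS replicate 2 or 3 or Nothing replicate 2 or 3 (adjusted p = 0.0534 to 0.102). Its cDC2 levels were 63.5, 130 and 106 CPM with LPS, against 12.3, 13.4 and 15 CPM with Nothing. These groups were apart too (2.91 ± 0.67, adjusted p = 0.005, and 0.0515 without Nothing replicate 4).

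In cDC1 the count of called members was 5 in place of 8 without LPS replicate 2, and also 5 without Nothing replicate 2. Over all genes those fits called 1441 and 1532, where the main fit called 2235. With the alum libraries and the library of 3805 counts put back into the fit, the count was 1 in each kind of cell (Nfkbiz in cDC1 and Nfkbie in cDC2). Over all genes, calls in that fit fell too, from 2235 to 596 in cDC1 and from 1062 to 232 in cDC2. Other features moved with LPS. The ribosomal locus took 13.94 to 25.91% of counts with LPS and 40.7 to 71.94% with Nothing in cDC1, and 21.3 to 26.35% with LPS and 28.6 to 37.34% with Nothing in cDC2. Summed monocyte or macrophage markers ran from 740 to 1533 CPM with LPS and from 934 to 3661 CPM with Nothing in cDC1, where 7 of 10 were called lower and 1 higher, and from 2047 to 3048 CPM with LPS and from 4314 to 5305 CPM with Nothing in cDC2, where 2 of 10 were called lower and 1 higher. Summed plasmacytoid dendritic cell markers ran from 78.5 to 117 CPM with LPS and from 179 to 355 CPM with Nothing in cDC1 (2 of 7 tested called lower). In cDC2 they ran from 184 to 507 CPM with LPS and from 18.7 to 61.2 CPM with Nothing. There 1 of 7 was called higher, the median log2 fold change of the 7 was 0, and Siglech, Ly6d and Klk1 were at 0 with LPS. Neutrophil precursor markers ran from 0 to 6.96 CPM with LPS and from 47.0 to 199 CPM with Nothing in cDC1, where 5 of the 6 tested were called lower and Elane was at 0 in both groups. With the ribosomal locus left out, 7 of the 8 cDC1 calls and 9 of the 9 cDC2 calls held. The part of the markers in the result was not tested.

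The wider pathway was described by 35 genes of the route upstream of NF-kB and of its feedback, all of which were tested. With LPS 16 of 35 rose in cDC1 and 18 of 35 in cDC2, and 0 fell in either. The median log2 fold change of the 35 was 1.11 in cDC1 and 1.60 in cDC2. Of all genes tested, 8.58% were called higher and 9.36% lower in cDC1, and 5.82% higher and 2.7% lower in cDC2. The median of all genes was -0.12 in cDC1 and 0.03 in cDC2. Traf1, an adaptor of TNF receptors, rose by 6.47 ± 0.64 in cDC1 (mean 858 CPM with LPS, 9.20 CPM with Nothing, adjusted p = 3.55e-07) and by 4.05 ± 0.57 in cDC2 (612 CPM with LPS, 35.7 CPM with Nothing, adjusted p = 4.43e-05). Tnfaip3, which encodes the feedback enzyme A20, rose by 4.66 ± 0.95 in cDC1 (386 CPM with LPS, 17.0 CPM with Nothing) and by 3.88 ± 0.92 in cDC2 (447 CPM with LPS, 28.7 CPM with Nothing). Birc3, a ubiquitin ligase of the pathway, rose by 3.24 ± 0.44 in cDC1 and 2.93 ± 0.45 in cDC2. Map3k14, the kinase NIK that starts the slower route, rose by 2.97 ± 0.45 in cDC1 and 1.73 ± 0.45 in cDC2.

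Nfkbid, which encodes the atypical IkB protein IkBNS, rose by 1.62 ± 0.39 in cDC1 (adjusted p = 0.00518) and by 1.46 ± 0.40 in cDC2 (adjusted p = 0.0204). Ikbke, a kinase related to IKK, rose by 5.83 ± 1.00 in cDC1 (163 CPM with LPS, 3.28 CPM with Nothing, adjusted p = 0.000222), and in cDC2 it had 2.26 ± 0.81 (263 CPM with LPS, 52.8 CPM with Nothing, adjusted p = 0.0955). Tnip1, an A20 partner, was called higher in both (3.23 ± 0.44 in cDC1 and 2.46 ± 0.43 in cDC2). Tnip3, Traf3 and Birc2 were the others with the smallest adjusted p in cDC1, at 4.78 ± 0.58, 2.38 ± 0.36 and 3.73 ± 0.60. In cDC2 those were Ikbkb, which encodes the catalytic kinase IKK-beta (1.85 ± 0.38), Rnf31, which encodes the ubiquitin ligase HOIP (1.99 ± 0.41), and Traf2 (2.09 ± 0.43).

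PGPC alone shows whether the oxidized phospholipid moves these genes without LPS. In cDC1, 1 of 10 members changed, Bcl3, which was lower, where 1.5% of all genes tested were called lower and 0.578% higher. In cDC2, 0 of 10 were called by edgeR and 0 by DESeq2, with 2 of 10 at an unadjusted p under 0.05, where 0.016% of all genes were called. The median of the 10 genes was -0.44 in cDC1, where that of all genes was 0, and 0.00 in cDC2, where that of all genes was -0.05.

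Bcl3 stood at 0.553, 5.54 and 0.255 CPM with PGPC in cDC1 (replicates 1, 2 and 3), against 41.1, 20.9 and 20 CPM with Nothing. These values rest on 14, 17 and 4 counts with PGPC, against 48, 165 and 132 counts with Nothing. The groups did not overlap, and the PGPC libraries themselves differed widely, with replicate 2 the highest. The log2 fold change was -4.16 ± 0.73 (adjusted p = 0.00295). It was -5.99 without PGPC replicate 2, -3.53 without PGPC replicate 1 and -3.44 without PGPC replicate 3, and it was called in each of these. In cDC2 the same gene stood at 17.0 and 5.17 CPM with PGPC, which are 31 and 3 counts, against 12.3, 13.4 and 15 CPM with Nothing. Those libraries overlapped (-0.12 ± 0.77, adjusted p = 1, 95% interval -1.70 to 1.46).

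Markers of other cells moved with PGPC in cDC1. Summed mast cell or basophil markers ran from 47.2 to 71.9 CPM with PGPC and from 0 to 0.253 CPM with Nothing, where 4 of the 5 markers (Mcpt8, Fcer1a, Ms4a2 and Prss34) were at 0, and 2 of the 4 tested were called higher. Neutrophil precursor markers ran from 259 to 1148 CPM with PGPC and from 47.0 to 199 CPM with Nothing, with 0 of the 6 tested called by edgeR and Elane at 0 in both groups. Monocyte or macrophage markers ran from 3310 to 4504 CPM with PGPC and from 934 to 3661 CPM with Nothing, with 1 of 10 called higher. Their part in the Bcl3 result was not tested. The ribosomal locus took 14.12 to 35.44% of counts with PGPC and 40.7 to 71.94% with Nothing, and without that locus Bcl3 had -4.19 (adjusted p = 0.00288).

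Rela came next in cDC1, at 73.9, 54.7 and 67.6 CPM with PGPC, against 350, 106 and 113 CPM with Nothing. All 3 PGPC libraries were below the Nothing libraries, and the log2 fold change of -1.52 ± 0.44 was not called by edgeR (adjusted p = 0.0683) but was by DESeq2 (-1.5, adjusted p = 0.0225). It was called by edgeR without Nothing replicate 2 or 3 (adjusted p = 0.0403 and 0.0454). Relb in cDC1 was spread over 20.3, 42.7 and 79.9 CPM with PGPC, against 20.5, 34.5 and 19.7 CPM with Nothing, and was not called (0.92 ± 0.46, adjusted p = 0.319). In cDC2, Rel stood at 54.8 and 68.9 CPM with PGPC, against 116, 149 and 165 CPM with Nothing, and Nfkb2 at 168 and 224 CPM with PGPC, against 71.3, 110 and 37.4 CPM with Nothing. Neither pair of groups overlapped, and neither gene was called, at -1.21 ± 0.46 for Rel (adjusted p = 0.8) and 1.36 ± 0.61 for Nfkb2 (adjusted p = 0.833). The libraries of all other members overlapped, with estimates from -0.95 (Nfkb2) to 0.03 (Nfkbia) in cDC1, Relb aside, and from -0.53 (Rela) to 0.51 (Nfkbia) in cDC2.

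Of the 35 pathway genes, 2 rose with PGPC in cDC1 and 0 fell, namely Traf1 (1.99 ± 0.53, 38.2 CPM with PGPC, 9.20 CPM with Nothing, adjusted p = 0.048) and Tnip3 (2.25 ± 0.54, 17.6 CPM with PGPC, 3.85 CPM with Nothing, adjusted p = 0.0257). The libraries of Tnip3 overlapped. Of all genes tested, 0.578% were called higher with PGPC in cDC1 and 1.5% lower. The other named pathway genes were not called there, with Ikbke at 1.31 ± 0.90, Tnfaip3 at 0.94 ± 0.85, Birc3 at 0.89 ± 0.41, Map3k14 at 0.63 ± 0.43 and Nfkbid at 0.62 ± 0.38. In cDC2, 0 of 35 were called by edgeR and 1 had an unadjusted p under 0.05, which was Map3k14 at 1.32 ± 0.50 (32.6 CPM with PGPC, 11.9 CPM with Nothing, adjusted p = 0.8).

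LPS with PGPC was set against Nothing to show the genes under the combined stimulus. In cDC1 8 of 10 members rose, where 6.58% of all genes tested were called higher and 5.3% lower, and in cDC2 8 of 10 rose, where 5.42% were higher and 2.2% lower. These comparisons share their Nothing libraries with those of LPS and of PGPC. Relb stood at 1695, 612 and 687 CPM in cDC1, a log2 fold change of 5.31 ± 0.54 that was 4.68 without LPS_PGPC replicate 1. Nfkbia stood at 1826, 776 and 776 CPM in cDC1 (3.20 ± 0.46), and replicate 1 was again well above the other LPS_PGPC libraries. Rela, which was not called with LPS in cDC1, stood there at 522, 526 and 636 CPM, against 350, 106 and 113 CPM with Nothing (1.57 ± 0.44, adjusted p = 0.0192). That call was lost without LPS_PGPC replicate 3 or Nothing replicate 2 or 3 (adjusted p = 0.064 to 0.11), and the value was 2.36 without Nothing replicate 1. Nfkbiz had 3.43 ± 0.61, Nfkb2 2.14 ± 0.57, Bcl3 1.99 ± 0.61, Rel 1.96 ± 0.39 and Nfkbib 1.65 ± 0.38 in cDC1, all with separate groups. The calls of Nfkb2 and Bcl3 were lost without single libraries (adjusted p up to 0.0743 for Nfkb2 without Nothing replicate 3, and up to 0.125 for Bcl3 without Nothing replicate 2).

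The members not called in cDC1 were Nfkb1, at 93.9, 34.0 and 36.5 CPM (-0.65 ± 0.48), and Nfkbie, at 129, 70.4 and 56.1 CPM (1.31 ± 0.44, adjusted p = 0.0537). In cDC2 they were Nfkb1, at 55.8, 23.5 and 16.0 CPM (0.67 ± 0.51), and Nfkb2, at 478, 189 and 121 CPM (1.79 ± 0.57, adjusted p = 0.0531). Nfkbie in cDC1 and Nfkb2 in cDC2 were called by DESeq2 (adjusted p = 0.0282 and 0.0224). In cDC2 Rel stood at 730, 477 and 694 CPM (2.16 ± 0.40), Relb at 567, 396 and 353 CPM (2.62 ± 0.48) and Nfkbia at 219, 411 and 535 CPM (2.61 ± 0.45), each above all 3 Nothing libraries. Nfkbiz had 2.73 ± 0.62 (3.84 without Nothing replicate 5), Bcl3 2.26 ± 0.65, Rela 1.90 ± 0.45, Nfkbie 1.74 ± 0.47 and Nfkbib 1.46 ± 0.39, also with separate groups. Each of these 5 lost its call without 1 or more single Nothing libraries (adjusted p = 0.0545 for Rela without Nothing replicate 6, 0.0701 for Nfkbiz, 0.106 for Nfkbie and 0.119 for Nfkbib without Nothing replicate 4), and Bcl3 without any 1 of the 6 (adjusted p = 0.0503 to 0.167). The count of calls was 5 in cDC1 without Nothing replicate 2 or 3, and 4 in cDC2 without Nothing replicate 4 or 6. Over all genes those fits called 1122 and 1226 in cDC1, where the main fit called 1480. In cDC2 they called 544 and 683, where the main fit called 950. Of all genes tested, 6.58% were called higher in cDC1 and 5.42% in cDC2. Of the 35 pathway genes 14 rose in cDC1 and 9 in cDC2, and 0 fell. Among those that rose were Traf1 (6.11 ± 0.63 in cDC1 and 4.15 ± 0.58 in cDC2), Map3k14 (3.56 ± 0.46 in cDC1 and 2.44 ± 0.45 in cDC2) and Traf2, a TNF receptor adaptor (2.59 ± 0.42 in cDC1 and 2.53 ± 0.43 in cDC2). Tnip3 (4.25 ± 0.57), Traf3 (2.67 ± 0.36) and Tnip1 (2.02 ± 0.42) rose in cDC1, and Rnf31 (1.68 ± 0.40) in cDC2. Ticam1, which encodes the TLR4 adaptor TRIF, and Chuk, which encodes the kinase IKK-alpha, were also higher in cDC2, at 2.06 ± 0.46 and 2.43 ± 0.56.

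Markers and the ribosomal locus moved with the combined stimulus too. In cDC1, summed monocyte or macrophage markers ran from 419 to 636 CPM with LPS_PGPC and from 934 to 3661 CPM with Nothing (6 of 10 called lower, 1 higher). Plasmacytoid markers ran from 85.6 to 214 CPM with LPS_PGPC and from 179 to 355 CPM with Nothing (4 of 7 tested called lower). Neutrophil precursor markers ran from 1.16 to 70.2 CPM with LPS_PGPC and from 47.0 to 199 CPM with Nothing (1 of 6 tested called lower, Elane at 0 in both groups and Mpo at 0 with LPS_PGPC). In cDC2, plasmacytoid markers ran from 204 to 471 CPM with LPS_PGPC and from 18.7 to 61.2 CPM with Nothing. Of 7 tested, 1 was called higher, and the median log2 fold change of the 7 was 0.71. Monocyte or macrophage markers ran there from 2382 to 3900 CPM with LPS_PGPC and from 4314 to 5305 CPM with Nothing (1 of 10 called higher). The part of these markers in the results was not tested. The locus took 7.701 to 39.07% of counts with LPS_PGPC and 40.7 to 71.94% with Nothing in cDC1, and 22.37 to 32.9% with LPS_PGPC and 28.6 to 37.34% with Nothing in cDC2. Without the locus the 8 calls in cDC1 and the 8 in cDC2 held.

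Set against PGPC alone, LPS with PGPC gave 9 of 10 members higher in cDC1, where 9.79% of all genes were called higher and 6.6% lower, and 6 of 10 in cDC2, where 4.43% were higher and 2.21% lower. Bcl3 in cDC1 stood at 75.4, 139 and 105 CPM with LPS_PGPC, against 0.553, 5.54 and 0.255 CPM with PGPC. That is a log2 fold change of 6.16 ± 0.76 (adjusted p = 7.34e-06), which was 7.96 without PGPC replicate 2, 5.51 without PGPC replicate 1 and 5.42 without PGPC replicate 3. Rela had 3.10 ± 0.47 and Nfkb2 3.09 ± 0.59 in the same comparison, and Nfkb1 was the member not called (-0.65 ± 0.48). Other values that moved when a library was left out were Relb at 4.39 ± 0.51 (3.8 without LPS_PGPC replicate 1, 4.99 without PGPC replicate 3), Nfkbiz at 3.48 ± 0.60 (4.32 without PGPC replicate 3) and Nfkbie at 2.02 ± 0.45 (2.84 without PGPC replicate 1). In cDC2 the members called were Rel (3.37 ± 0.50), Nfkbiz (2.94 ± 0.74), Rela (2.43 ± 0.54), Relb (2.42 ± 0.56), Nfkbia (2.10 ± 0.52) and Nfkbib (1.49 ± 0.46). Only Rel was still called when either PGPC library was left out, which leaves that group with 1 library assumed to vary like the others (adjusted p = 0.0693 to 0.266 for the other 5, with Nfkbiz at 4.49 without PGPC replicate 4). Nfkbib also lost its call without LPS_PGPC replicate 5 or 6 (adjusted p = 0.107 and 0.115), with median-ratio scaling (adjusted p = 0.0674) and with no filter on low counts (adjusted p = 0.0853). DESeq2 called 8 there, with Nfkbie (adjusted p = 0.0264) and Bcl3 (adjusted p = 0.0215) beside the 6. Of the 35 pathway genes 13 rose and 1 fell in cDC1, where the gene that fell was Pdlim2, an inhibitor of nuclear p65 (-1.79 ± 0.58, 8.41 CPM with LPS_PGPC, 29.0 CPM with PGPC). In cDC2 4 rose, namely Traf1 (3.88 ± 0.67), Chuk (3.23 ± 0.73), Ticam1 (2.66 ± 0.56) and Traf2 (2.04 ± 0.49).

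In cDC1 the markers of other cells were lower with LPS_PGPC than with PGPC. Mast cell or basophil markers summed to 0 to 0.114 CPM with LPS_PGPC and to 47.2 to 71.9 CPM with PGPC (4 of 4 tested called lower, with Mcpt8, Fcer1a and Ms4a2 at 0 with LPS_PGPC). Neutrophil precursor markers ran from 1.16 to 70.2 CPM with LPS_PGPC and from 259 to 1148 CPM with PGPC (6 of 6 lower). Monocyte or macrophage markers ran from 419 to 636 CPM with LPS_PGPC and from 3310 to 4504 CPM with PGPC (7 of 10 lower), and plasmacytoid markers from 85.6 to 214 CPM with LPS_PGPC and from 305 to 395 CPM with PGPC (4 of 7 lower). In cDC2 plasmacytoid markers ran from 204 to 471 CPM with LPS_PGPC and from 29.0 to 39.6 CPM with PGPC. Of 7 tested, 1 was called higher, and the median log2 fold change of the 7 was 2.05. Monocyte or macrophage markers ran there from 2382 to 3900 CPM with LPS_PGPC and from 3002 to 3566 CPM with PGPC (2 of 10 higher, 1 lower). Their part in the results was not tested. The ribosomal locus took 7.701 to 39.07% of counts with LPS_PGPC and 14.12 to 35.44% with PGPC in cDC1, and 22.37 to 32.9% with LPS_PGPC and 52.05 to 60.89% with PGPC in cDC2. Without it the 9 calls in cDC1 held, and in cDC2 Nfkbib lost its call (adjusted p = 0.0518).

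LPS with PGPC against LPS alone shows what the phospholipid adds to the LPS response. In cDC1 0 of 10 members were called by edgeR and 0 by DESeq2, with 3 at an unadjusted p under 0.05, where 1.93% of all genes were called. In cDC2 0 of 10 were called by edgeR and 0 by DESeq2, with 2 at an unadjusted p under 0.05, where 0.385% of all genes were called. The median log2 fold change of the 10 genes was -0.07 in cDC1, where that of all genes was 0.07. It was -0.75 in cDC2, where that of all genes was 0.01, and 9 of the 10 estimates there were below 0.

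Nfkbiz had the lowest estimate of the 10 in both kinds of cell. In cDC1 it stood at 59.2, 196 and 177 CPM with LPS_PGPC, against 357, 396 and 473 CPM with LPS. In cDC2 it stood at 48.5, 91.0 and 91.6 CPM with LPS_PGPC, against 172, 263 and 251 CPM with LPS. All LPS_PGPC libraries were below all LPS libraries of their kind of cell. The log2 fold changes were -1.5 ± 0.55 in cDC1 (adjusted p = 0.158, 95% interval -2.63 to -0.37) and -1.57 ± 0.55 in cDC2 (adjusted p = 0.343, 95% interval -2.71 to -0.43), neither of them called.

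**Figure D3:**
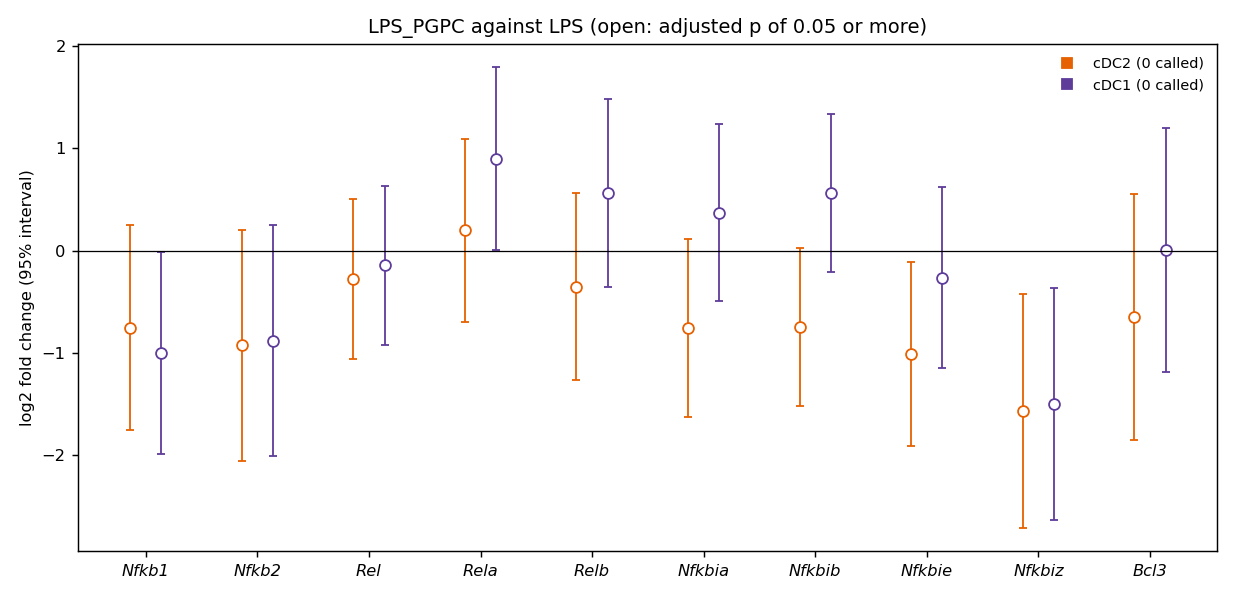
Log2 fold change of each gene for LPS_PGPC against LPS (y axis, bars are 95% intervals), cDC2 in orange left of cDC1 in purple, with 0 called in either. Nfkbiz is the lowest point in both, at -1.57 in cDC2 and -1.5 in cDC1, and Rela in cDC1 is the highest at 0.90.

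Nfkbie in cDC2 was also below, at 76.0, 65.1 and 55.6 CPM with LPS_PGPC, against 165, 115 and 115 CPM with LPS (-1.01 ± 0.44, adjusted p = 0.518). In cDC1 the LPS_PGPC libraries of Rela, at 522, 526 and 636 CPM, were all above the LPS libraries at 383, 167 and 351 CPM (0.90 ± 0.44, adjusted p = 0.297). Those of Nfkbib, at 202, 116 and 115 CPM, were all above the LPS libraries at 103, 76.2 and 113 CPM (0.56 ± 0.37, adjusted p = 0.465). Bcl3 averaged 106 CPM in both groups of cDC1, with an estimate of 0.01 ± 0.58. For the other members the groups overlapped. In cDC2 the libraries of the same replicate number deviated together in this comparison (r = 0.59, 0.132 and 0.273 for replicates 4, 5 and 6). Within these pairs 8 of 10 members were lower with LPS_PGPC in all 3, the exceptions being Rela and Bcl3. How many of all genes did so was not counted, and most members moved together across libraries, so these are not separate results. Matched by number in cDC1, where the numbers were not taken as pairs, 3 of 10 members were lower in all 3. There r was 0.217, 0.0535 and 0.159 for replicates 1, 2 and 3, with replicate 2 below the cut of 0.1. No label states pairs, and the cut was applied to these same libraries, so the 2 counts are not alike. With the replicate number as a block, 0 of 10 were called by edgeR in cDC2. The ribosomal locus took 7.701 to 39.07% of counts with LPS_PGPC and 13.94 to 25.91% with LPS in cDC1, and 22.37 to 32.9% with LPS_PGPC and 21.3 to 26.35% with LPS in cDC2. Of all genes 1.93% were called in cDC1 and 0.385% in cDC2. Of the 35 pathway genes 0 were called by edgeR in either kind of cell, with 8 in cDC1 and 5 in cDC2 at an unadjusted p under 0.05. Tnfaip3, for example, had -1.5 ± 0.82 in cDC1 (137 CPM with LPS_PGPC, 386 CPM with LPS, adjusted p = 0.364) and -1.57 ± 0.82 in cDC2 (151 CPM with LPS_PGPC, 447 CPM with LPS, adjusted p = 0.679). Ikbke had -2.41 ± 0.81 in cDC1 (30.6 CPM with LPS_PGPC, 163 CPM with LPS, adjusted p = 0.12).

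The kinds of cell were compared within each treatment. With Nothing, 1 of 10 members was lower in cDC2 and 1 higher, where 6.14% of all genes were called lower and 4.01% higher. Nfkb1 was lower, at 20.4, 24.0 and 11.2 CPM in cDC2, against 88.1, 98.6 and 71.6 CPM in cDC1. The groups were far apart (-2.11 ± 0.52, adjusted p = 0.0101, and 0.0516 without cDC2 replicate 4). Relb was higher, at 79.0, 72.1 and 59.9 CPM in cDC2, against 20.5, 34.5 and 19.7 CPM in cDC1. Those groups did not overlap either (1.5 ± 0.47, adjusted p = 0.0427), but the call was lost without any 1 of the 6 libraries (adjusted p = 0.0538 to 0.123). The cDC2 libraries of Nfkbia, Nfkbie and Bcl3 were all below those of cDC1 too, with estimates of -0.95 ± 0.43, -0.81 ± 0.46 and -1.01 ± 0.65 that were not called. With all 36 libraries in the fit, none of the calls between the kinds of cell remained. Over all genes, calls with Nothing then fell from 1265 to 118.

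The 2 kinds of culture also differed in markers of other cells. With Nothing, summed plasmacytoid dendritic cell markers ran from 18.7 to 61.2 CPM in cDC2 and from 179 to 355 CPM in cDC1, with 5 of the 7 tested called lower in cDC2. Neutrophil precursor markers ran from 0 to 1.61 CPM in cDC2, where 5 of 8 were at 0, and from 47.0 to 199 CPM in cDC1. Monocyte or macrophage markers ran from 4314 to 5305 CPM in cDC2 and from 934 to 3661 CPM in cDC1. The ribosomal locus took 28.6 to 37.34% in cDC2 and 40.7 to 71.94% in cDC1. Without that locus Nfkb1 had -2.04 and Relb 1.57, both called, and the part of the markers in the results was not tested.

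With LPS, 0 of 10 members differed between the kinds of cell by edgeR and 0 by DESeq2, with 2 at an unadjusted p under 0.05, where 5.59% of all genes were called higher and 2.21% lower. Relb, called between unstimulated cells, was at 847, 411 and 422 CPM in cDC2 and at 826, 632 and 573 CPM in cDC1 (-0.27 ± 0.45, 95% interval -1.19 to 0.65). Nfkb1 had -1.03 ± 0.49 (adjusted p = 0.219), and all 3 cDC2 libraries were below the cDC1 libraries. Nfkbib had 0.85 ± 0.38 (adjusted p = 0.182), and was called without cDC2 replicate 4 (1.17, adjusted p = 0.0374). The libraries of Nfkbie (0.37 ± 0.43) lay all above those of cDC1 and those of Nfkbiz (-0.84 ± 0.54) all below, neither of them called.

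With PGPC, 1 member was lower and 2 were higher in cDC2, where 5.22% of all genes were called lower and 6.83% higher. Nfkb1 was lower, at 31.2 and 10.3 CPM in cDC2, against 80.3, 76.9 and 101 CPM in cDC1 (-1.96 ± 0.60, adjusted p = 0.033). Nfkb2 was higher, at 168 and 224 CPM in cDC2, against 31.2, 44.9 and 35.2 CPM in cDC1 (2.40 ± 0.62, adjusted p = 0.0125). The libraries of both genes were well apart. Bcl3 was called higher, at 17.0 and 5.17 CPM in cDC2, against 0.553, 5.54 and 0.255 CPM in cDC1 (3.03 ± 0.80, adjusted p = 0.0149), although its libraries overlapped. Its value was 1.79 (adjusted p = 0.532) without cDC2 replicate 4, 2.34 (adjusted p = 0.0739) without cDC1 replicate 1, 2.31 without cDC1 replicate 3 and 4.93 without cDC1 replicate 2. The call of Nfkb2 was lost without cDC2 replicate 5 (adjusted p = 0.103), and that of Nfkb1 without cDC2 replicate 4 or 5 or cDC1 replicate 2 or 3 (adjusted p = 0.05 to 0.318, with a value of -3.07 without cDC2 replicate 4). Depth, the ribosomal locus and markers moved along. The cDC2 libraries held 969959 and 2437933 counts and the cDC1 libraries 2460024 to 16601064. The locus took 52.05 to 60.89% of counts in cDC2 and 14.12 to 35.44% in cDC1, and mast cell or basophil markers summed to 0 CPM in cDC2 and to 47.2 to 71.9 CPM in cDC1. Plasmacytoid markers ran from 29.0 to 39.6 CPM in cDC2 and from 305 to 395 CPM in cDC1 (7 of 7 tested called lower). Without the locus all 3 calls held, at -1.85 for Nfkb1, 2.51 for Nfkb2 and 3.14 for Bcl3, and the part of the markers was not tested.

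With LPS and PGPC, 1 of 10 members was lower in cDC2 and 0 higher, where 2.54% of all genes were called lower and 4.6% higher. Nfkbia was the member, at 219, 411 and 535 CPM in cDC2, against 1826, 776 and 776 CPM in cDC1 (-1.54 ± 0.43, adjusted p = 0.0291). The libraries did not overlap, but without cDC1 replicate 1 the log2 fold change was -0.97 (adjusted p = 0.217), and the call was also lost without cDC2 replicate 4 or 5 (adjusted p = 0.153 and 0.0815). Monocyte or macrophage markers ran from 2382 to 3900 CPM in cDC2 and from 419 to 636 CPM in cDC1 (9 of 10 called higher), and neutrophil precursor markers from 0.595 to 1.14 CPM in cDC2 and from 1.16 to 70.2 CPM in cDC1 (3 of 6 tested called lower), and their part in the Nfkbia result was not tested. The ribosomal locus took 22.37 to 32.9% in cDC2 and 7.701 to 39.07% in cDC1, and without it Nfkbia had -1.48 (adjusted p = 0.0353). Of all genes tested, 4.01% were called higher in cDC2 with Nothing, 5.59% with LPS, 6.83% with PGPC and 4.6% with LPS_PGPC. The shares called lower were 6.14%, 2.21%, 5.22% and 2.54%. Among the pathway genes 5 of 35 were higher in cDC2 with Nothing, 2 with LPS, 4 with PGPC and 0 with LPS_PGPC by edgeR (4 of these 35 at an unadjusted p under 0.05), and 0 were lower in any. Ikbke was higher in cDC2 with Nothing (4.27 ± 0.96, 52.8 CPM in cDC2, 3.28 CPM in cDC1, adjusted p = 0.00519) and with PGPC (3.94 ± 0.91, 110 CPM in cDC2, 6.83 CPM in cDC1, adjusted p = 0.0065). Tnip3 (3.28 ± 0.56), Traf1 (1.94 ± 0.55), Ikbkg, the scaffold of the IKK complex (1.49 ± 0.45), and Traf3 (1.37 ± 0.36) were the others with Nothing. With PGPC they were Irak3 (1.98 ± 0.61), Traf3 (1.78 ± 0.38) and Tnip1 (1.43 ± 0.45), and with LPS Irak3 (1.95 ± 0.53) and Rnf31 (1.26 ± 0.39).

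**Figure D4:**
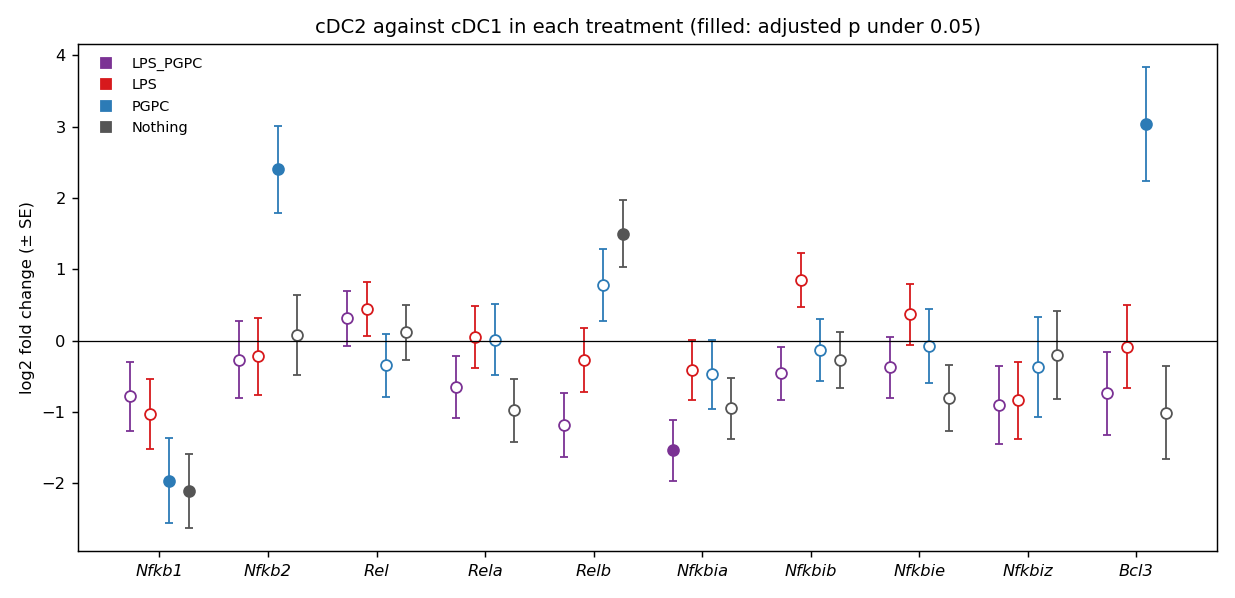
Log2 fold change of cDC2 against cDC1 for each gene in each treatment (y axis, bars are standard errors), with LPS_PGPC in purple, LPS in red, PGPC in blue and Nothing in grey from left to right. Filled points had an adjusted p under 0.05. Nfkb1 is below 0 in all 4 treatments, from -2.11 with Nothing to -0.78 with LPS_PGPC.

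Whether a treatment acted differently in cDC2 and cDC1 was tested as a difference of log2 fold changes, cDC2 minus cDC1. For LPS against Nothing 0 of 10 members were called by edgeR or DESeq2 and 2 had an unadjusted p under 0.05, where 1.33% of all genes were called. Relb had the lowest value at -1.77 ± 0.65 (adjusted p = 0.205, 95% interval -3.11 to -0.44), with 2.98 in cDC2 and 4.75 in cDC1. Nfkbib had 1.12 ± 0.54 (adjusted p = 0.355). Of the 35 pathway genes 1 was called, Tnip3, with -3.88 ± 0.74 (adjusted p = 0.0087), so its response was smaller in cDC2.

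For PGPC against Nothing 0 of 10 members were called by edgeR, 2 had an unadjusted p under 0.05, and DESeq2 called 1, where 0.168% of all genes were called by edgeR. That member was Bcl3, with -0.12 in cDC2 and -4.16 in cDC1 and a difference of 4.04 ± 1.03 (adjusted p = 0.11, and 0.0288 by DESeq2). It was called by edgeR without cDC1 PGPC replicate 2 (5.89, adjusted p = 0.000279) and without a filter on low counts (3.92, adjusted p = 0.000754). Nfkb2 was the other, with 2.32 ± 0.83 (adjusted p = 0.306). For LPS_PGPC against LPS 0 of 10 were called by edgeR or DESeq2 and 1 had an unadjusted p under 0.05, Nfkbib at -1.31 ± 0.53 (adjusted p = 0.576), where 0.00802% of all genes were called.

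To compare levels between the subunit genes, CPM was divided by the length of each gene's joined annotated exons in kilobases, which is 12061 bases for Nfkb1 and 3072 bases for Rela. Each gene was then given as a share of the 5 subunits' summed CPM per kb. In cDC1 the share of Relb was 41.8 ± 13.7% with LPS_PGPC, 36 ± 2.11% with LPS, 19.6 ± 9.07% with PGPC and 6.99 ± 4.31% with Nothing. The share of Rela there was 33.0 ± 9.19% with LPS_PGPC, 20.1 ± 6.89% with LPS, 36.8 ± 9.52% with PGPC and 52.6 ± 13.4% with Nothing. So Rela had the highest share in each unstimulated cDC1 library, at 44.8 to 68.1%, and Relb the highest in each cDC1 library with LPS, at 34.0 to 38.2%.

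In cDC2 Relb held 29.9 ± 3.74% with LPS_PGPC, 30.4 ± 4.61% with LPS, 22.1 ± 2.79% with PGPC and 21.6 ± 2.69% with Nothing. Rela held 32.2 ± 11.1% with LPS_PGPC, 24.7 ± 13.9% with LPS, 22.6 ± 4.91% with PGPC and 35.2 ± 5.39% with Nothing. Nfkb2 in cDC2 held 44.8 ± 7.88% with PGPC, in libraries of 39.3 and 50.4%, and 17.9 ± 5.81% with Nothing, in libraries of 12.4 to 24.0%. Nfkb1 had the lowest mean share of the 5 in 7 of the 8 groups, the exception being cDC1 with Nothing, where it held 7.43 ± 3.18%. Its mean share ran from 0.67% in cDC2 with LPS_PGPC to 12.1% in cDC1 with PGPC. A sum of joined exons overstates the transcript length of a gene with long alternative exons, so the shares depend on this choice of length.

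**Figure D5:**
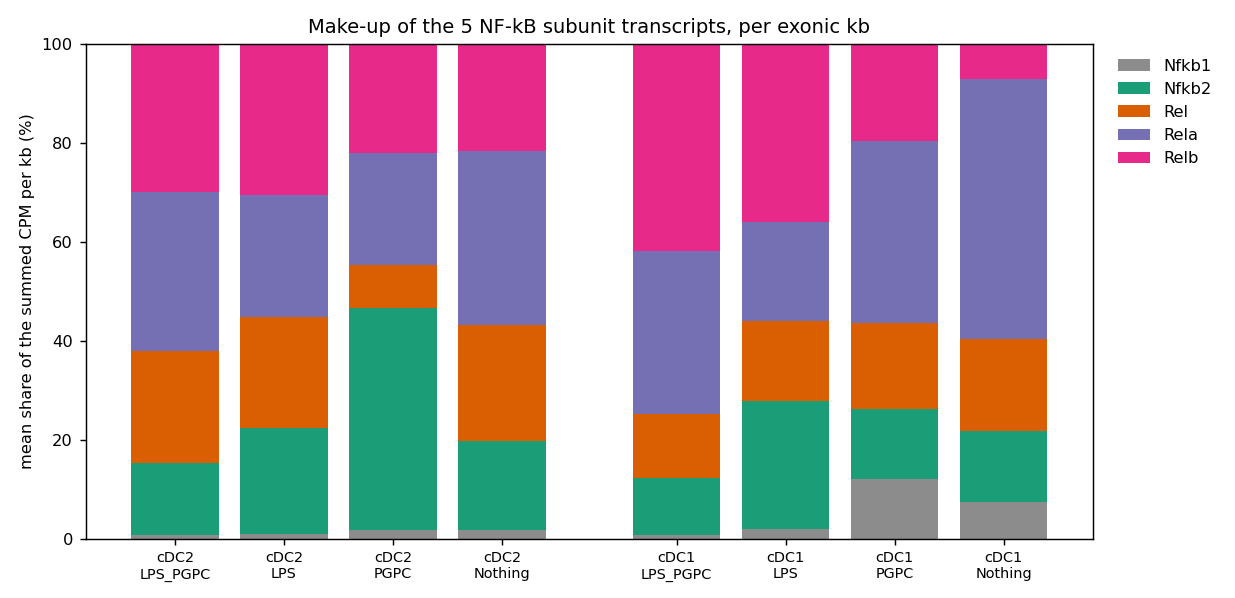
Mean share of each subunit gene (stacked bars, y axis in percent) in the summed CPM per kb of the 5 subunits, for the 4 treatments in cDC2 and then in cDC1. The Relb segment is 36% with LPS and 6.99% with Nothing in cDC1, and the Nfkb2 segment is 44.8% with PGPC in cDC2.

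Among the 5 IkB genes on the same scale, Nfkbia held the most in every group, from 53.9 ± 7.26% in cDC2 with Nothing to 78.9 ± 6.69% in cDC1 with LPS_PGPC. Nfkbib held 6.07 ± 1.05% with LPS and 17.2 ± 2.24% with Nothing in cDC1, and 12.6 ± 2.02% with LPS and 25.7 ± 3.75% with Nothing in cDC2. Nfkbiz held 11.0 ± 0.384% with LPS and 2.28 ± 1.04% with Nothing in cDC1, and 4.16 ± 2.83% with LPS_PGPC. Bcl3 held 0.903 ± 1.33% with PGPC in cDC1 and 8.90 ± 3.26% with Nothing.

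Across the 23 libraries, which share the treatment groups and their depth, 9 of the genes moved together on the log2(CPM + 1) scale. Pearson's r between any pair of these 9 ran from 0.613 (Nfkb2 with Rela) to 0.917 (Nfkbia with Nfkbib). Nfkb1 stood apart, with r from 0.0519 (Rel) to 0.391 (Nfkbie) to the others. These values describe the libraries, and no test was made. Of 8678 genes averaging 5 CPM or more, those most like Relb were Pfkfb3 (r = 0.963), the migration receptor gene Ccr7 (0.961) and Traf1 (0.958). Those most like Nfkbiz were Marcks (0.938), the cytokine gene Il6 (0.938) and the chemokine gene Ccl3 (0.937), and those most like Nfkb1 were Grap (0.935), Ptpn6 (0.890) and Fgd2 (0.870). Nfkb2 was nearest to Tyk2 (0.951) and Junb (0.950), Rel to Susd2 (0.967) and Dtx3l (0.959), Rela to the phosphatase gene Dusp2 (0.907) and Nfkbia to Pgap2 (0.948). Nfkbib was nearest to Adora2a (0.934), Nfkbie to Mllt6 (0.926) and Bcl3 to St3gal3 (0.877).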

How the data were processed

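Total RNA of mouse cDC1 and cDC2 was sequenced as Smart-Seq2 libraries, per the labels' protocols. The authors deposited expected counts per gene symbol, and the submitters' processing notes name RSEM, bcl2fastq 2.2 and the build GRCm38. RSEM version, aligner, annotation: not given in the sources used here. Of the nonzero values 21% were not whole (tolerance 1e-06), and counts were rounded. Groups were taken from the labels.

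All tests are quasi-likelihood F-tests from a joint model of the 23 libraries, with a mean for each of the 8 groups, TMM factors and robust dispersions. It was made in R 4.3.3 with edgeR 4.0.16 on limma 3.58.1, after filterByExpr (minimum count 10, minimum total 15). The biological coefficient of variation was 0.545. The 17 contrasts were adjusted by Benjamini-Hochberg over the 12463 genes, and every adjusted p is from edgeR unless DESeq2 (1.42.0) is named. Library totals of 243870 to 16601064 counts put 3 counts at 0.181 to 12.3 CPM, so low values are least certain in the shallow libraries. The script was tested on simulated data.

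The text names all 10 members, Tnfaip3, Nfkbid, Ikbke, Map3k14, Traf1 and Birc3, up to 4 other called pathway genes with the smallest adjusted p, and the genes with the highest r. These pathway genes are not all given in every comparison, and Pdlim2 is named beside them as the pathway gene that fell. The members and lists were chosen with earlier results of these data known. Replicate numbers were checked for pairing by whether same-numbered libraries deviated together from their group means, and every pair did (r over 0.1) only for LPS_PGPC and LPS in cDC2. Gene positions are from GENCODE M21. No protein sequences were used here. Alternatives were median-ratio scaling, no filter, non-robust dispersions, all 36 libraries, DESeq2, a replicate block, leaving out each library in turn and, chosen after seeing the data, leaving out the ribosomal locus. A change of sign was counted only where one of the values was called.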

Additional observations from a re-analysis of the deposited data

Results flagged for a closer look

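The alum libraries were not used in the comparisons. In cDC1 with LPS and alum, Nfkbia was at 149, 1320 and 2891 CPM of plain library totals (lowest, median and highest of the 3 libraries), against 56.6 to 128 CPM in cDC1 with Nothing on the same scale. All 3 values, from data outside the main measurement, were above each Nothing library. Nfkbia was the only member for which this held in any alum group, and how many of all genes did so was not counted. The same 3 libraries held counts in 1862 to 2610 genes and had 0 counts of Nfkb1, Nfkbib and Nfkbie. Their Relb ran from 5.27 to 2747 CPM, their Rela from 0 to 3374 CPM and their Nfkb2 from 0 to 2135 CPM. Nfkbia in the cDC2 libraries with LPS and alum was at 0, 1.81 and 2061 CPM (lowest, median and highest), against 36.9 to 83.8 CPM in cDC2 with Nothing, so those libraries were not all above the controls.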

How the results depend on the processing

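Of 1150 member results under other settings, 1074 kept their side of the threshold, 60 lost a call, 16 gained a call and 0 reversed. Of 1160 with a library left out, 1082 kept it, 71 lost a call, 7 gained a call and 0 reversed. These totals include results not called in the main fit, which had no call to lose. A change of sign between uncalled values was not counted. With all 36 libraries, 52 of 170 member results lost their call and 0 gained a call. The 170 include the results not called in the main fit. The only calls that remained were Nfkbiz for LPS in cDC1, Nfkbie for LPS in cDC2 and Bcl3 for LPS_PGPC against PGPC in cDC1. The counts of called members were then 1 for LPS against Nothing in cDC1 and 1 in cDC2, 0 for PGPC in cDC1, 0 and 0 for LPS_PGPC against Nothing, 1 in cDC1 and 0 in cDC2 for LPS_PGPC against PGPC, and 0 for cDC2 against cDC1 with Nothing, PGPC or LPS_PGPC. Calls over all genes fell in that fit too, from 2235 to 596 for LPS in cDC1 and from 1062 to 232 in cDC2. For LPS_PGPC against Nothing they fell from 1480 to 362 in cDC1 and from 950 to 155 in cDC2. DESeq2 called 2 with PGPC in cDC1 and 1 in the difference between kinds of cell for PGPC, and no filter also gave 1 there. Over all genes DESeq2 called 637 with PGPC in cDC1, where edgeR called 259. The cause was not tested.

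With a library left out, the counts ran from 5 to 8 for LPS, 1 to 2 for PGPC, 5 to 8 for LPS_PGPC against Nothing and 9 to 9 against PGPC in cDC1. In cDC2 they ran from 7 to 9 for LPS, 4 to 7 for LPS_PGPC against Nothing and 1 to 6 against PGPC. For cDC2 against cDC1 they ran from 0 to 1 with Nothing, 0 to 1 with LPS, 1 to 2 with PGPC and 0 to 1 with LPS_PGPC, and from 0 to 1 for the PGPC difference.

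The labels number replicates 1 to 3 in cDC1 and 4 to 6 in cDC2. Of 33 pairs with the same number, 9 had deviations from the group means correlated over 0.1 (range -0.244 to 0.59). The numbers were therefore not taken as pairs, save between LPS_PGPC and LPS in cDC2, where all 3 pairs passed. Of 23 libraries, 14 correlated best with their own number among the 3 of their kind of cell. Whether that is more than unrelated numbers would give was not tested, so some numbers may mark shared cultures or mice. With the replicate block the counts were 8 for LPS, 1 for PGPC, 7 for LPS_PGPC against Nothing and 9 against PGPC in cDC1, and 10, 0, 9 and 6 in cDC2. Over all genes the block called 2138 for LPS in cDC1 and 1017 in cDC2, where the main fit called 2235 and 1062. The block gained Nfkb1 for LPS (adjusted p = 0.0419), Nfkb2 for LPS_PGPC against Nothing (0.0315) and Nfkbie for LPS_PGPC against PGPC (0.0267), all in cDC2. It lost Bcl3 for LPS_PGPC against Nothing in cDC1 (0.0547) and Nfkbib for LPS_PGPC against PGPC in cDC2 (0.0725), and changed no other call of a member. Leaving out the ribosomal locus moved the median of all genes by 0.122 for cDC2 against cDC1 with PGPC. Depth limits the low values: Bcl3 with PGPC rests on 3 to 31 counts per library, and precision is least in the cDC2 library of 243870 counts.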
